A study of Arabidopsis thaliana with 18 samples.

Results

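The response to antimycin A was followed in seedlings of the Arabidopsis mutant rao1-2, using 6 of the 18 ATH1 arrays of the series: all 3 arrays labelled rao1-2 with 3 h of antimycin A and all 3 labelled rao1-2 mock. The treated seedlings were sprayed with 50 µM antimycin A and the mock seedlings with deionised water. All were 14 days old and had grown on Gamborg B5 medium with 3% sucrose at 22 °C with 16 h of light and 8 h of dark a day, and whole green tissue was collected 3 h after spraying. The other 12 arrays held the same 2 treatments, 3 arrays each, in rao1-1, the other mutant, and in wild type, labelled Col:LUC.

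Antimycin A blocks electron transfer in complex III of the mitochondrial respiratory chain, so that electrons back up towards ubiquinone and reactive oxygen species form. Plant mitochondria then signal to the nucleus, a route called retrograde signalling, and genes for alternative respiration, detoxification and transport are switched on. The rao mutants carry the name regulators of alternative oxidase 1a, after the gene most used to follow this route. The title of the series names CDKE1, a kinase of the mediator complex, which links transcription factors to RNA polymerase II, as a component of the signalling. CDKE1 and AOX1A, the alternative oxidase gene itself, were without a named probe set and are not analysed here, so neither the mutation nor its reporter gene was checked here.

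Each value is the deposited intensity of a probe set, a group of short oligonucleotides for 1 transcript, and each change is a difference of mean log2 intensities, antimycin A minus mock, with its SE. A background limit at log2 4.25 (an intensity of 19.0) separated the lower and upper modes of all values. Where a probe set was under it on all 3 arrays of a group, only a bound could be had. Its fold is then given as "at least", computed with the limit in place of values under it, and no fold is given where both groups were under it. The same bound is given where a group was under it in part, and the text then says on how many arrays. A probe set was called where limma's adjusted p, over 22746 probe sets, was under 0.05. Precision is limited by the small number of arrays. The labels do not state that replicates came from separate cultures, so the spread that the p-values rest on may be technical.

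The 3 antimycin A arrays were close to each other, whereas mock replicate 1 stood apart from mock replicates 2 and 3. On the antimycin A arrays, 115 to 131 probe sets lay over 2-fold from the mean of the other 2 arrays of the group (of those above the background limit on all 3), against 874 on mock replicate 1, 203 on mock replicate 2 and 385 on mock replicate 3. Results that rest on mock replicate 1 are given with and without it. The control probe set for 25S ribosomal RNA had log2 intensities of 13.95, 14.00 and 14.15 under antimycin A, against 12.91, 12.99 and 13.03 under mock, a difference of 1.05 ± 0.08. Its part in the results that follow was not tested. Of the 2 named markers for the labelled green tissue, RCA (Rubisco activase) had intensities between 24572 and 25542 under antimycin A, against 25372 to 28044 under mock, and was not called. The other, SPCH, a factor of the stomatal lineage, had 12.6, 12.3 and 12.9 under antimycin A, against 26.4, 21.7 and 24.0 under mock, at least 1.26-fold lower (adjusted p = 0.0272), a call lost without any 1 of the antimycin A arrays and without mock replicate 1 or 3. The root markers EXPA7, EXPA18 and AT5G17820 were under the background limit on all 6 arrays, while the root marker PYK10 was above it on all 6, at 315 to 1107 under antimycin A and 54.6 to 790 under mock, and was not called.

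The first question was how much of the transcriptome responded in rao1-2. Of 22746 probe sets, 9756 were called (42.9%), of which 3550 were higher under antimycin A (15.6%) and 6206 lower (27.3%). The groups of 3 arrays did not overlap for 12534 probe sets (55.1%), among them 9498 of those called. Falls were more numerous and rises larger: the median called rise was 1.25 on the log2 scale (2.38-fold), and the median called fall was -0.84 (1.79-fold lower). At a minimum of 4-fold, 1041 called probe sets were higher and 415 lower, and at a minimum of 32-fold 128 were higher and 1 lower. The split between rises and falls depends on the scaling of the arrays. Centred on the poly(A) controls added to the RNA, 2436 were called higher and 10477 lower (18.9% higher, against 36.4% on the deposited scale), and the median of all probe sets was -0.27 in place of 0.03. Centred on the hybridisation controls, 2757 were called higher and 9789 lower (22.0% higher), with a median of -0.17. In whole tissue, fewer cells of a type and less RNA per cell cannot be told apart.

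**Figure D1:**
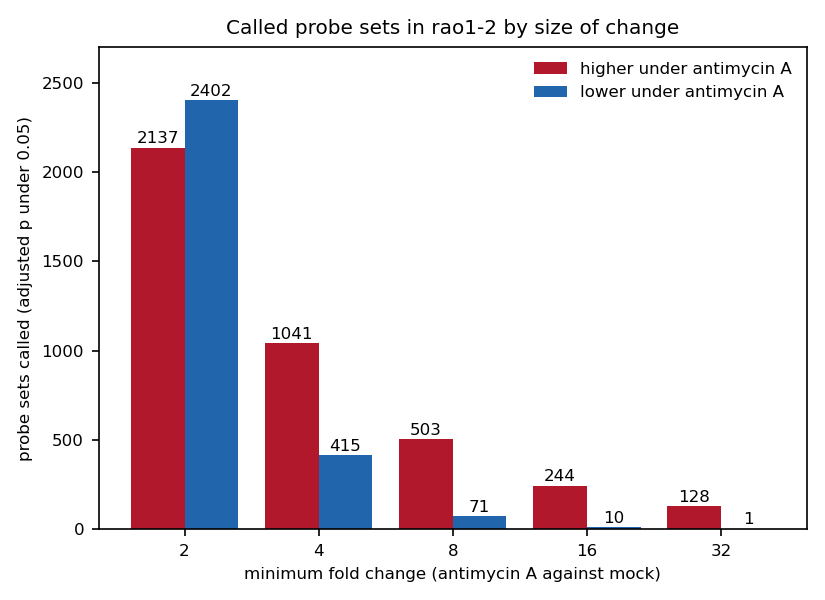
Number of called probe sets (y axis) in rao1-2 whose fitted fold change, antimycin A against mock, reached at least the value on the x axis, with rises in red left of falls in blue. Falls led at 2-fold (2137 rises and 2402 falls), and rises led from 4-fold (1041 and 415) to 32-fold (128 and 1); folds of probe sets under the background limit in a group are fitted values.

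Of 12 named markers of mitochondrial dysfunction, a list of transcripts known to respond to block of the respiratory chain, 9 were called higher (75.0%, beside 15.6% of all probe sets) and 0 lower, with a median change of 3.55, beside 0.03 over all probe sets. AT2G32020 had intensities of 1609, 1403 and 1661 under antimycin A, against 3.93, 3.57 and 4.68 under mock. All mock values lay under the background limit and all treated values far above it, so that the transcript was at least 81.6-fold higher (8.59 ± 0.14 on the log2 scale, adjusted p = 8.86e-14). AT2G04050, which belongs to the MATE efflux transporters as well, had 2001, 2345 and 3388 under antimycin A, against 6.03, 14.2 and 6.56 under mock. This gene too was under the limit on each mock array, and was at least 132-fold higher (8.25 ± 0.39, adjusted p = 4.09e-09). AT5G14730 had 5949, 7227 and 7443 under antimycin A, against 75.4, 92.7 and 245 under mock. It was measured on all 6 arrays and was 57.1-fold higher (5.84 ± 0.32, adjusted p = 1.49e-08).

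AT2G41730 reached the narrow range of 22021 to 23707 under antimycin A, whereas its 3 mock values of 109, 817 and 1811 were spread widely, with mock replicate 1 lowest. It rose 42.3-fold (5.40 ± 0.73, adjusted p = 4.19e-05). Without mock replicate 1 the change was 4.24, and without mock replicate 3 it was 6.27. The same order of the mock arrays was seen for AT2G21640, with 3390, 2006 and 3740 under antimycin A, against 30.1, 115 and 261 under mock (4.93 ± 0.60, adjusted p = 1.70e-05), and its change was 4.09 without mock replicate 1 and 5.65 without mock replicate 3. NDB2, an alternative NAD(P)H dehydrogenase that feeds electrons to ubiquinone without complex I, had 993, 1154 and 1275 under antimycin A, against 114, 508 and 591 under mock. Its groups did not overlap, but the call (1.80 ± 0.59, adjusted p = 0.0227) was lost without mock replicate 1 (1.05, adjusted p = 0.112), without antimycin A replicate 2 (adjusted p = 0.0550) and without antimycin A replicate 3 (adjusted p = 0.0641). GSTU25, a glutathione transferase, had 1073, 814 and 1723 under antimycin A, against 20.6, 146 and 285 under mock (3.59 ± 0.92, adjusted p = 0.00560). Its change was 2.49 without mock replicate 1 and 4.38 without mock replicate 3. Without mock replicate 1, 8 of the 12 markers were called higher, with a median of 2.99.

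The 3 markers that were not called differed in kind. AT5G51440 had 746, 636 and 1003 under antimycin A, within the span of its mock values of 62.6, 734 and 1121 (1.07 ± 0.81, adjusted p = 0.317), and its change was -0.22 without mock replicate 1. AT5G09570 and AT2G03130 were under the background limit on all 6 arrays, with antimycin A replicate 1 of AT5G09570 nearest to it at 17.8. Of the other named genes for alternative respiration, NDC1, a further alternative NAD(P)H dehydrogenase, fell 1.295-fold (adjusted p = 0.00106). NDB1, of the same family, was lower by a change of -0.73 (adjusted p = 0.0115), a call lost without antimycin A replicate 3 (adjusted p = 0.0631).

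**Figure D2:**
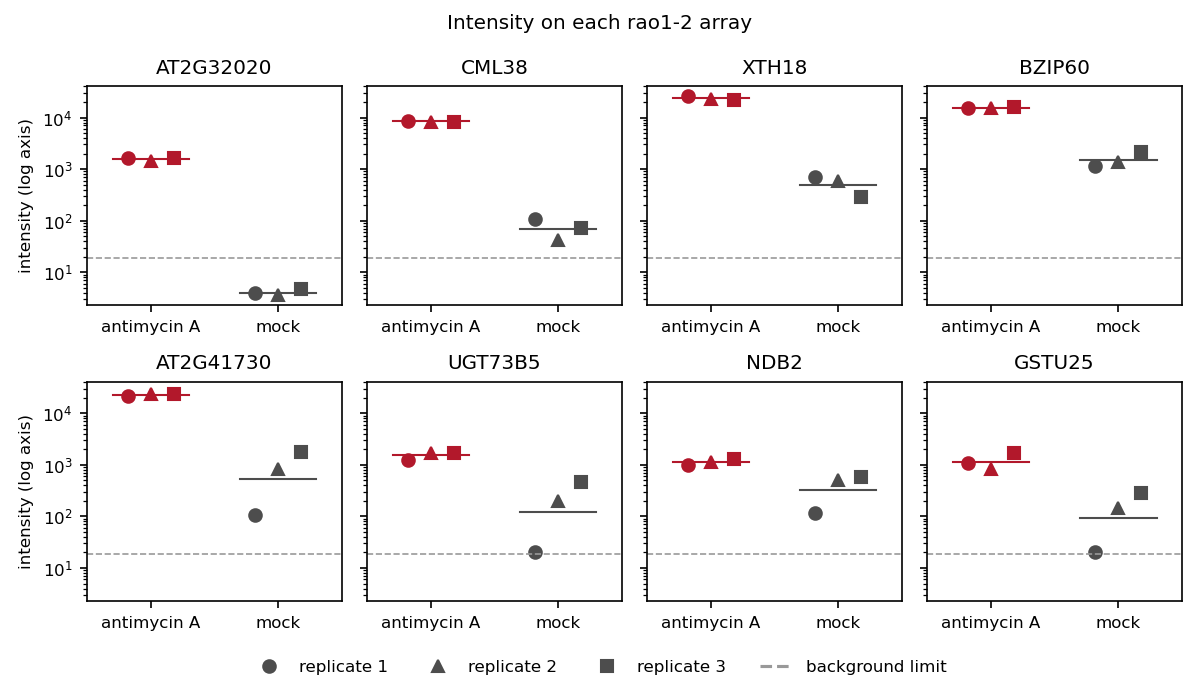
Intensity on each rao1-2 array (log scale) for AT2G32020, CML38, XTH18, BZIP60, AT2G41730, UGT73B5, NDB2 and GSTU25, with antimycin A left of mock, 1 marker shape for each replicate number, a line at the geometric mean and a dashed line at the background limit of 19.0. In the upper panels the groups lie far apart, and in the lower panels the mock arrays are spread widely, with replicate 1 lowest.

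Outside that list, the largest rise among named genes measured on all 6 arrays was that of AT2G41640, with 4142, 5216 and 4766 under antimycin A, against 37.6, 24.5 and 22.0 under mock. It was 172-fold higher (7.43 ± 0.45, adjusted p = 3.96e-08). CML38, a calmodulin-like calcium sensor that also belongs to the core hypoxia genes, had 8734, 8341 and 8331 under antimycin A, against 110, 41.7 and 73.0 under mock. It was 122-fold higher (6.93 ± 0.31, adjusted p = 3.28e-09), and the treated arrays varied less than the mock arrays. ZCF37 had 2940, 3433 and 3124 under antimycin A, against 25.9, 26.7 and 67.1 under mock, and was 87.9-fold higher. XTH18, a xyloglucan endotransglucosylase that remodels the cell wall, had 26175, 22962 and 21718 under antimycin A, against 691, 586 and 283 under mock. It was 48.5-fold higher (5.60 ± 0.37, adjusted p = 9.18e-08). AT4G28703, AT5G40690, AT1G69890, AT2G27080, AT2G32150 and AT1G23710 completed the 12 largest rises, at 36.5-fold to 49.9-fold, each with non-overlapping groups.

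In all, 200 called probe sets were under the background limit on all 3 mock arrays and above it on all 3 antimycin A arrays, and 161 showed the opposite. After AT2G04050, the highest bound belonged to AT4G28460, with 2087, 2091 and 2702 under antimycin A, against 4.64, 10.7 and 4.92 under mock, at least 119.6-fold higher (adjusted p = 1.54e-08). AT1G22810 was at least 93.7-fold higher, AT5G59680 at least 59.9-fold and AT1G44130 at least 54.1-fold. AT2G20670, at 614, 1409 and 806 under antimycin A, against 10.5, 2.95 and 7.62 under mock, had the widest error of these genes (7.17 ± 1.14, adjusted p = 0.000166). Bounds for the transcripts lost under antimycin A were smaller. AT5G48500 had 9.77, 15.2 and 14.6 under antimycin A, against 149.9, 102 and 79.8 under mock, at least 5.61-fold lower (adjusted p = 0.000132). AT4G04750, with 3.50, 3.35 and 10.6 under antimycin A, against 87.1, 69.7 and 126 under mock, was at least 4.80-fold lower. Mock values of both were above the limit on every array and not far from it.

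Among named genes measured on all 6 arrays, the deepest falls included enzymes of the cell wall and the cuticle. GH9C2, an endoglucanase of glycosyl hydrolase family 9, had 89.2, 26.2 and 45.3 under antimycin A, against 671, 426 and 553 under mock, 11.4-fold lower (-3.51 ± 0.50, adjusted p = 6.78e-05). WSD1, a wax ester synthase, had 44.9, 27.1 and 54.8 under antimycin A, against 346, 331 and 553 under mock. It was 9.83-fold lower (-3.30 ± 0.27, adjusted p = 4.88e-07). AT3G56370, at 27.3 to 30.2 under antimycin A and 216 to 296 under mock, was 9.05-fold lower. The other 9 of the 12 deepest falls, AT1G06000, AT5G02890, AT2G16630, AT3G23450, AT4G29520, AT3G61820, AT5G45950, AT1G49650 and AT3G62820, lay between 6.41-fold and 8.88-fold lower. In each of them every antimycin A array was below every mock array.

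The most uniform fall was that of the cytosolic ribosomal proteins, the protein subunits of the ribosomes that translate nuclear transcripts. Of 98 named loci, 92 were called lower and 1 higher, against 27.3% and 15.6% of all probe sets, and the other 5 were under the background limit in both groups. The median change was -0.90 (1.86-fold lower), beside -0.24 over all probe sets above the limit on at least 1 of the 6 arrays. The median log2 intensity of the list was 11.85, 11.77 and 11.85 on the antimycin A arrays, against 12.59, 12.74 and 12.85 on the mock arrays, so that each treated array lay below each mock array. AT5G39850, the deepest fall, had 298, 304 and 309 under antimycin A, against 879, 1001 and 899 under mock, 3.04-fold lower (-1.61 ± 0.22, adjusted p = 4.06e-05). AT3G04840 had 4043, 3679 and 4180 under antimycin A, against 9373, 10823 and 12055 under mock. It was 2.70-fold lower (-1.43 ± 0.12, adjusted p = 9.23e-07), and AT5G60670 (2.70-fold) and AT2G32060 (2.65-fold) fell by similar amounts. The single locus called higher was AT3G04230, with 484, 586 and 483 under antimycin A, against 330, 374 and 316 under mock (0.60 ± 0.08, adjusted p = 5.19e-05). Centred on the poly(A) controls 93 were lower and 0 higher, with a median of -1.20, so that the call of AT3G04230 was not kept there. Members of this family have close copies that short probes may not tell apart.

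Nuclear genes for the respiratory chain mostly fell, by smaller amounts. Of 28 named genes of complex I, which passes electrons from NADH to ubiquinone, 20 were called lower (71.4%, beside 27.3% of all probe sets) and 0 higher. All 28 were above the background limit on at least 1 array. Their median of -0.30 was near the -0.24 of all probe sets above the limit on at least 1 array. Of 13067 probe sets above it on all 6 arrays, 5486 were called lower. Without mock replicate 3, 13 were called lower. FRO1, an iron-sulphur subunit, had 1636, 1765 and 1434 under antimycin A, against 2615, 2682 and 3397 under mock, 1.79-fold lower (adjusted p = 5.28e-05). AT5G52840 was 1.92-fold lower, AT4G20150 1.61-fold and AT4G16450 1.59-fold. Of 13 genes for complex III and cytochrome c, where antimycin A binds and electrons leave, 8 were called lower (61.5%) and 1 higher (7.69%). The median was -0.35, and 15.6% of all probe sets were called higher. MPPBETA, a processing peptidase that in plants is part of complex III, had 3160, 2909 and 3222 under antimycin A, against 4117, 5112 and 5009 under mock, 1.53-fold lower (adjusted p = 0.000113). AT1G51980 fell 1.71-fold. CYTC-2, a cytochrome c gene, was the member called higher (0.89 ± 0.33, adjusted p = 0.0403). That call was lost without mock replicate 1 (0.51, adjusted p = 0.197), without antimycin A replicate 2 (adjusted p = 0.0974), without antimycin A replicate 3 (adjusted p = 0.114) and under both control centrings, where 12 genes were lower and 0 higher.

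Further along the chain, 8 of 14 genes for cytochrome c oxidase and ATP synthase were called lower (57.1%) and 1 higher (7.14%). The median was -0.49, and 27.3% and 15.6% of all probe sets were called lower and higher. AT5G61310 had 395, 407 and 366 under antimycin A, against 1220, 1190 and 1037 under mock, 2.95-fold lower (adjusted p = 1.68e-06). AT1G02410 moved against the list, with 1084, 996 and 1049 under antimycin A, against 354, 471 and 464 under mock. It was 2.45-fold higher (1.29 ± 0.11, adjusted p = 8.86e-07). In the tricarboxylic acid cycle, which feeds electrons to the chain, 6 of 15 genes were lower and 1 higher. SDH1-1, the flavoprotein of succinate dehydrogenase, had 1521, 1499 and 1650 under antimycin A, against 1903, 2460 and 2840 under mock, 1.52-fold lower (adjusted p = 0.00291). The member called higher, AT3G55410 (0.36 ± 0.13, adjusted p = 0.0386), was not called without mock replicate 1 (0.18, adjusted p = 0.187), nor without any 1 of the antimycin A arrays (adjusted p of 0.0706 to 0.0893). Centred on either set of controls, 26 of the 28 complex I genes and 11 of the 14 for cytochrome c oxidase and ATP synthase were lower, and AT1G02410 remained higher. In the tricarboxylic acid cycle 10 (poly(A)) and 9 (hybridisation) were then lower and 0 higher.

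Transcripts of the mitochondrial genome went the other way. Of 16 named transcripts 11 were called higher (68.8%, beside 15.6% of all probe sets) and 0 lower, with a median change of 0.95. All 16 had non-overlapping groups, beside 55.1% of all probe sets, but 3 of them were under the background limit on all 6 arrays. nad5, a complex I subunit encoded in the mitochondrion, had 65.3, 114 and 71.3 under antimycin A, against 17.7, 13.4 and 17.9 under mock. The mock arrays were all under the limit, which gave a rise of at least 4.25-fold (adjusted p = 0.000168). nad4L had 40.7, 56.2 and 53.3 under antimycin A, against 19.7, 8.77 and 15.9 under mock, where 1 of 3 arrays was above the limit. It was at least 2.58-fold higher (adjusted p = 0.000400). nad9 was 2.93-fold higher and nad6 at least 1.82-fold. cox1, the core subunit of cytochrome c oxidase, was chosen after its values were seen as a brighter example, with 749, 722 and 693 under antimycin A, against 409, 334 and 381 under mock. It was 1.93-fold higher (0.95 ± 0.13, adjusted p = 3.38e-05). With the control centrings 8 (poly(A)) and 10 (hybridisation) of the 16 were higher and 0 lower. The nuclear genome of Columbia holds a copy of much of the mitochondrial genome, which these probes cannot tell apart from it, and 25S ribosomal RNA was higher on the same arrays by 1.05.

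Transcripts of the plastid genome moved less. Of 69 named transcripts, 23 were called higher (33.3%, beside 15.6% of all probe sets) and 0 lower, with a median of 0.18. Groups did not overlap for 27 of the 69, a smaller share than the 55.1% of all probe sets. Fewer were called without mock replicate 3 (11 higher and 1 lower) and without antimycin A replicate 1 (14 higher and 0 lower). petD, a cytochrome b6f subunit, had 53.9, 109 and 69.0 under antimycin A, against 30.6, 18.5 and 23.7 under mock. Mock replicate 2 alone was under the limit, and petD was at least 3.08-fold higher (adjusted p = 0.000173). rps14, a plastid ribosomal protein, was 2.07-fold higher, and ndhG, a subunit of the plastid NADH dehydrogenase-like complex, 1.96-fold. The direction of the list was not kept under other scalings: centred on the poly(A) controls 5 were higher and 10 lower (median -0.12), and centred on the hybridisation controls 7 were higher and 5 lower (median -0.02).

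**Figure D3:**
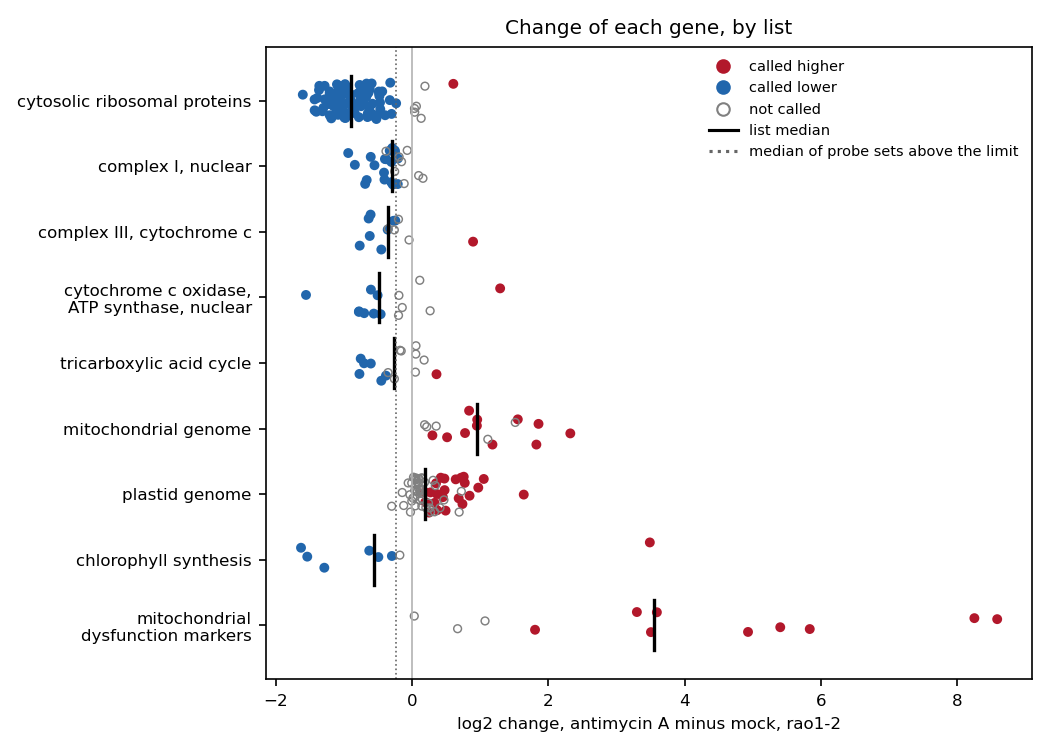
Log2 change, antimycin A minus mock, of each named member of 9 gene lists in rao1-2, with filled red points called higher, filled blue points called lower, open points not called, a black bar at the list's median and a dotted line at -0.24, the median of all probe sets above the background limit on at least 1 array. The cytosolic ribosomal proteins (median -0.90) and mitochondrial genome transcripts (median 0.95) lie almost wholly on opposite sides of 0.

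Calls among nuclear genes for the chloroplast were mostly lower. In chlorophyll synthesis, 6 of 8 genes were called lower (75.0%, beside 27.3% of all probe sets) and 1 higher, with a median of -0.56. HEME2, uroporphyrinogen decarboxylase, had 876, 820 and 1016 under antimycin A, against 3237, 2497 and 2688 under mock, 3.10-fold lower (adjusted p = 4.73e-06). CHLI2, a magnesium chelatase subunit, was 2.91-fold lower and PORB, which reduces protochlorophyllide, 2.45-fold. HEMA2, a glutamyl-tRNA reductase at the first committed step of tetrapyrrole synthesis, rose against the rest. It had 669, 896 and 633 under antimycin A, against 70.0, 72.7 and 52.7 under mock, 11.2-fold higher (3.49 ± 0.17, adjusted p = 6.09e-09). Of 13 named organelle transcript processing genes, most of them for chloroplast transcripts, 5 were lower (38.5%, beside 27.3% of all probe sets) and 0 higher, and 9 were lower with the poly(A) centring. CRR21, needed for the plastid NADH dehydrogenase-like complex, had 64.2, 70.3 and 63.7 under antimycin A, against 554, 285 and 299 under mock, 5.48-fold lower (adjusted p = 0.00133). OTP81, a pentatricopeptide repeat protein, was under the limit on 2 of 3 antimycin A arrays and was at least 4.38-fold lower. Of 8 genes for light harvesting and photosystems 3 were lower (37.5%) and 0 higher, or 8 (poly(A)) and 6 (hybridisation) lower with the control centrings. All 8 were above the background limit on at least 1 array. Their median of -0.26 was near the -0.24 of all probe sets above the limit on at least 1 array. Of 13067 probe sets above it on all 6 arrays, 5486 were called lower. The falls were led by LHCB4.3 (2.20-fold), a light-harvesting protein, and PRK, phosphoribulokinase of the Calvin cycle, was 2.16-fold lower.

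Of 7 calmodulin and calmodulin-like genes, which sense calcium, 5 were called higher (71.4%, beside 15.6% of all probe sets) and 0 lower. With either control centring 4 were higher and 1 lower. Without antimycin A replicate 2, 3 were called higher. Besides CML38, CML37 had 662, 821 and 436 under antimycin A, against 5.27, 5.05 and 5.20 under mock. All mock values were under the limit, and CML37 was at least 32.5-fold higher (adjusted p = 2.13e-10). CML42 had 1033, 989 and 1047 under antimycin A, against 473, 651 and 397 under mock, 2.06-fold higher (adjusted p = 0.00244). Of 15 genes of the IQ-domain family, whose proteins bind calmodulin, 7 were called lower (46.7%, beside 27.3% of all probe sets) and 1 higher. The median of the family, -0.24, was that of all probe sets above the limit. IQD24 had 108, 79.3 and 82.3 under antimycin A, against 290.3, 349 and 322 under mock, 3.59-fold lower (adjusted p = 2.61e-05), while IQD22 rose 1.63-fold.

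Of 9 U-box ubiquitin ligases, enzymes that mark proteins for degradation, 6 were called higher (66.7%, beside 15.6% of all probe sets) and 0 lower. The median change was 1.25. PUB23, known to damp immune signalling, had 1774, 2599 and 1818 under antimycin A, against 253, 329 and 219 under mock, 7.72-fold higher (2.95 ± 0.19, adjusted p = 6.13e-08). Its close relative PUB22 had 1635, 1746 and 1308 under antimycin A, against 309, 394 and 178 under mock, and was 5.57-fold higher (adjusted p = 2.46e-05). PUB26 was 4.89-fold higher. Centred on the controls, 5 of the 9 were higher and 1 (poly(A)) or 2 (hybridisation) lower. Among 12 ubiquitin-conjugating enzymes 2 rose (16.7%) and 1 fell (8.33%), beside 15.6% and 27.3% of all probe sets. With either control centring 1 rose and 6 fell. UBC16 had 678, 799 and 599 under antimycin A, against 169, 150.4 and 121 under mock (4.73-fold higher, adjusted p = 1.24e-07). The 12 ubiquitin-specific proteases, which remove the mark, had 8 lower (66.7%) and 0 higher, from UBP22 (2.44-fold) to smaller falls. RPN12a, a subunit of the proteasome, was 2.06-fold lower.

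Transcription factors moved in both directions. BZIP60, a bZIP factor of the unfolded protein response of the endoplasmic reticulum, had 15504, 15029 and 16033 under antimycin A, against 1164, 1399 and 2106 under mock. It was 10.3-fold higher (3.36 ± 0.27, adjusted p = 4.20e-07), while BZIP17, a membrane-tethered bZIP factor of stress responses, had 118, 120 and 117 under antimycin A, against 214, 265 and 272 under mock, 2.11-fold lower (adjusted p = 0.000516). Among 14 bZIP genes 7 were called higher (50.0%) and 3 lower (21.4%), beside 15.6% and 27.3% of all probe sets. With the control centrings 5 were higher and 4 (poly(A)) or 3 (hybridisation) lower. STZ, a C2H2 zinc-finger repressor of stress responses, had 13020, 13765 and 12627 under antimycin A, against 747, 736 and 1105 under mock. It was 15.5-fold higher (3.95 ± 0.21, adjusted p = 1.29e-08). WRKY22, a defence factor, had 1755, 1811 and 1490 under antimycin A, against 133, 138 and 98.8 under mock, 13.8-fold higher (adjusted p = 8.08e-07). WRKY6, linked to senescence, was 5.37-fold higher (adjusted p = 0.000418). In all, 3 of the 6 named WRKY genes were called higher (50.0%) and 1, WRKY20 (1.28-fold), lower (16.7%). With either control centring, without mock replicate 1 or without antimycin A replicate 3, 2 were higher, with WRKY53 lost.

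Calls in the families of detoxification are read against the shares of all probe sets, 15.6% higher and 27.3% lower. Of 47 glucosyltransferases, which attach sugar to hormones, flavonoids and foreign compounds, 7 were called higher (14.9%) and 12 lower (25.5%). With the control centrings 5 were higher and 23 lower (poly(A)), or 6 and 22 (hybridisation). UGT73B5 had 1258, 1675 and 1732 under antimycin A, against 20.5, 199 and 467 under mock (3.63 ± 0.94, adjusted p = 0.00586). Its change was 2.34 without mock replicate 1 and 4.59 without mock replicate 3. The call was lost with only the 6 rao1-2 arrays in the fit (adjusted p = 0.0588). UGT73B4 followed the same order of mock arrays (3.50 ± 0.64, adjusted p = 0.000512), at 2.53 without mock replicate 1 and 4.25 without mock replicate 3. UGT78D1, a flavonol rhamnosyltransferase, fell 6.14-fold, with 87.9, 63.4 and 68.0 under antimycin A, against 368, 442 and 538 under mock (adjusted p = 5.07e-06). Of 13 glutathione transferases, 3 were higher and 3 lower (23.1% each). Without mock replicate 1, 3 were higher and 5 lower, and with either control centring 2 were higher and 6 lower. GSTU22 had 121, 64.5 and 177 under antimycin A, against 4.99, 10.5 and 12.1 under mock, at least 5.85-fold higher (adjusted p = 3.17e-05). GSTU20 had 1754, 958 and 1549 under antimycin A, against 4928, 3994 and 4787 under mock, 3.31-fold lower (adjusted p = 2.90e-05). Cytochrome P450 genes had 1 higher (4.35%) and 5 lower (21.7%) of 23, led by CYP71B26 among the falls (3.52-fold, adjusted p = 5.18e-06), or 9 (poly(A)) and 7 (hybridisation) lower with the control centrings. Aldehyde dehydrogenases had 3 lower (37.5%) and 0 higher of 8, led by ALDH3F1 (2.89-fold).

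MATE efflux transporters, which carry organic compounds out of the cytosol, had 7 of 14 loci called higher (50.0%) and 0 lower. AT1G66760 had 178, 186 and 145 under antimycin A, against 9.64, 17.4 and 8.61 under mock, at least 8.86-fold higher (adjusted p = 5.45e-06). AT2G04070 had 353, 1011 and 928 under antimycin A, against 42.3, 88.5 and 92.9 under mock, 9.84-fold higher with a wide error (3.30 ± 0.89, adjusted p = 0.00783). AT1G33110 was 4.13-fold higher. Centred on either set of controls, or without antimycin A replicate 3, 7 were higher and 2 lower. Of 19 sugar transporters 1 was higher (5.26%) and 4 lower (21.1%), beside 15.6% and 27.3% of all probe sets. With either control centring 9 were lower, and without antimycin A replicate 2 a further one was higher. SWEET1 had 27.2, 8.46 and 25.3 under antimycin A, against 170, 115 and 135 under mock. Antimycin A replicate 2 was under the limit, and SWEET1 was at least 5.85-fold lower (adjusted p = 8.87e-05).

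Genes of membrane traffic and autophagy were mixed. Of 18 genes of vacuolar sorting and exocytosis 7 rose (38.9%, beside 15.6% of all probe sets) and 5 fell (27.8%, beside 27.3%). Without antimycin A replicate 3 the falls were 3, with VPS9B and SEC5A lost. The rises included parts of the ESCRT machinery, which buds vesicles into endosomes and repairs membranes. VPS2.1 had 4370, 4033 and 3404 under antimycin A, against 1230, 1312 and 1239 under mock, 3.11-fold higher (1.64 ± 0.10, adjusted p = 6.41e-08). VPS60.1 was 4.34-fold higher (adjusted p = 4.27e-07) and VPS46.2 2.24-fold (adjusted p = 3.17e-08). SEC1B, of vesicle fusion, was 5.24-fold higher. Of 15 tetraspanins, which organise membrane domains, 3 rose and 1 fell, against 3 higher and 7 (poly(A)) or 6 (hybridisation) lower with the control centrings, and 0 lower without antimycin A replicate 3. TET8 had 7866, 8868 and 8367 under antimycin A, against 1277, 1777 and 2974 under mock, 4.42-fold higher (adjusted p = 1.18e-05), and TET9 was 15.0-fold higher. Of 10 autophagy genes 3 rose and 1 fell, against 6 and 1 without mock replicate 1, 2 and 2 without mock replicate 2, and 0 falls without mock replicate 3 or antimycin A replicate 1. ATG8E, which is joined to the membranes of autophagosomes, had 3188, 3231 and 3278 under antimycin A, against 1003, 339 and 272 under mock (7.15-fold higher, adjusted p = 0.000673). With the control centrings 1 autophagy gene was higher and 3 (poly(A)) or 2 (hybridisation) lower.

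Calls among cell wall and growth genes went both ways. Of 27 expansins and xyloglucan enzymes, which loosen the wall, 7 rose (25.9%) and 6 fell (22.2%), beside 15.6% and 27.3% of all probe sets, while 10 (poly(A)) or 11 (hybridisation) fell with the control centrings. EXLA3, an expansin-like protein, had 587, 529 and 384 under antimycin A, against 3.23, 6.98 and 4.81 under mock, at least 25.9-fold higher (adjusted p = 6.25e-08). XTH19, a close relative of XTH18, had 2804, 3687 and 2990 under antimycin A, against 466, 226 and 343 under mock, 9.50-fold higher (adjusted p = 3.37e-05). EXPA9, an expansin, had 13.2, 9.43 and 13.5 under antimycin A, against 155, 53.5 and 54.4 under mock, at least 4.03-fold lower (adjusted p = 3.98e-05). XTH32 was 3.55-fold lower. TBL genes, a family that acetylates wall polysaccharides, had 5 higher (22.7%) and 4 lower (18.2%) of 22, with a median of 0.02. With the control centrings 3 were higher and 11 (poly(A)) or 9 (hybridisation) lower. TBL38 had 2287, 2108 and 1834 under antimycin A, against 375, 343 and 339 under mock, 5.88-fold higher (adjusted p = 8.87e-09). TBL25 had 181, 158 and 164 under antimycin A, against 758, 531 and 497 under mock, 3.50-fold lower (adjusted p = 4.48e-07).

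Of 7 tubulins, the subunits of microtubules, 6 were called lower (85.7%, beside 27.3% of all probe sets) and 1 higher. TUA6 had 4344, 3980 and 4578 under antimycin A, against 7854, 8883 and 8115 under mock, 1.93-fold lower (-0.95 ± 0.10, adjusted p = 4.85e-06). TUA1 was 1.40-fold higher (adjusted p = 0.00613), a call not kept with either control centring. Small RALF-like peptides, which alkalinise the wall and restrain growth, had 2 of 11 higher (18.2%) and 3 lower (27.3%). The shares of all probe sets were 15.6% and 27.3%. With either control centring 5 were lower. RALFL33 had 9819, 10950 and 8864 under antimycin A, against 1420, 2337 and 1787 under mock, 5.44-fold higher (adjusted p = 1.38e-06). RALFL34 had 811, 621 and 619 under antimycin A, against 2137, 1789 and 2559 under mock, 3.16-fold lower (adjusted p = 4.02e-05).

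Hormone and cold genes showed single strong members. GH3.3, an auxin-conjugating enzyme, had 2526, 3294 and 2242 under antimycin A, against 1358, 1029 and 651 under mock, 2.74-fold higher (adjusted p = 0.000321). Of 12 auxin response genes 5 were higher (41.7%) and 1 lower (8.33%), beside 15.6% and 27.3% of all probe sets. The lower call was lost without antimycin A replicate 2 or mock replicate 3 and joined by another with the poly(A) centring. ORA47, an ERF factor of jasmonate synthesis, was at least 4.97-fold higher (adjusted p = 0.000123). MYC4, a jasmonate-response factor, was 1.83-fold lower (adjusted p = 0.00417). COR27, a cold-induced gene, had 3226, 3126 and 2869 under antimycin A, against 519, 476 and 208 under mock, 8.26-fold higher (3.05 ± 0.27, adjusted p = 1.23e-06), and LTI30, a dehydrin, was 3.67-fold higher (adjusted p = 0.00308). SAG101, of salicylate-linked immunity, was 2.45-fold higher (adjusted p = 2.04e-05). The core hypoxia list, genes that rise when oxygen is short, had 3 of 7 higher and 3 lower (42.9% each). Without antimycin A replicate 1, antimycin A replicate 3 or mock replicate 3, 1 was lower, with AT3G27220 and AT3G10040 lost. AT4G17260 had 2140, 2051 and 2186 under antimycin A, against 291, 409 and 601 under mock, 5.12-fold higher (adjusted p = 1.24e-05). AT4G10270, by contrast, had 16.4, 8.15 and 11.9 under antimycin A, against 41.7, 97.6 and 166 under mock, at least 4.61-fold lower (adjusted p = 9.63e-05).

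The last question was whether the response of rao1-2 differed from those of the other genotypes, tested as a difference of responses within the same fit. Against wild type, 45 probe sets were called (0.198%), 19 with a higher and 26 with a lower response in rao1-2. Leaving out mock replicate 1 of rao1-2 gave 324, wild-type antimycin A replicate 1 gave 103, wild-type mock replicate 3 gave 101 and rao1-2 antimycin A replicate 2 gave 27, while a fit with the replicate number as a block gave 10 (5 higher and 5 lower). Centred on the hybridisation controls 47 were called, 8 higher and 39 lower. Against rao1-1, limma called 0 (0.0%), with 1504 at an unadjusted p under 0.05 and 57 called without mock replicate 1 of rao1-2. Wild-type seedlings had 3282 probe sets higher (14.4%) and 6540 lower (28.8%), and rao1-1 had 3590 higher (15.8%) and 5635 lower (24.8%).

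Among the markers of mitochondrial dysfunction 2 of 12 differed from wild type. AT2G32020 reached 1558 ± 137 under antimycin A in rao1-2 and 5022 ± 1058 in wild type (SD, n = 3), with mock values under the background limit in both. Its response was lower in rao1-2 by -1.73 ± 0.20 on the log2 scale (adjusted p = 0.00284 in limma's fit), and with the replicate block the adjusted p was 0.05004. In rao1-1 the treated level was 1845 ± 199. AT5G09570 stayed under the limit on all 6 rao1-2 arrays and reached 119 ± 55.5 in wild type under antimycin A (SD, n = 3). The fitted difference was -3.79 ± 0.59 (adjusted p = 0.0176 in limma's fit), lost without rao1-2 antimycin A replicate 2 (adjusted p = 0.0525), without wild-type antimycin A replicate 3 (adjusted p = 0.0574) and with the replicate block (adjusted p = 0.101), under which 0 of the 12 markers differed. The median response of the list was 3.55 in rao1-2, 4.41 in rao1-1 and 6.13 in wild type, with 9, 10 and 11 of 12 called higher. Of the other 10 markers each had a lower fitted response in rao1-2 than in wild type, and 0 passed the test of the difference. GSTU25 had the widest such gap, -5.02 ± 1.304 (adjusted p = 0.203).

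Medians of the other lists were compared as descriptions. Ribosomal protein loci had a median of -0.90 in rao1-2, -0.70 in rao1-1 and -0.71 in wild type, with 92, 90 and 92 of 98 called lower, and 0 differed from wild type. Mitochondrial genome transcripts had medians of 0.95, 1.07 and 0.60, and complex I genes -0.30, -0.19 and -0.30, in the same order of genotypes. Plastid genome transcripts had 23 higher and 0 lower in rao1-2, 24 and 0 in rao1-1, and 2 and 2 in wild type, while 0 of the 69 passed the test of the difference. Among all lists, the only member outside the markers called different from wild type was CHIL, a chalcone isomerase-like protein of flavonoid synthesis. It had 8.28, 9.46 and 7.23 under antimycin A in rao1-2, against 59.4, 35.7 and 112 under mock, at least 3.25-fold lower (adjusted p = 6.84e-06). Its response in wild type was -0.27, and the difference of -2.63 (adjusted p = 0.0311 in limma's fit) was not called without any 1 of the rao1-2 antimycin A arrays (adjusted p of 0.0683 to 0.0808), nor without wild-type antimycin A replicate 2 or 3 or wild-type mock replicate 1 or 2 (0.0539 to 0.0811).

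**Figure D4:**
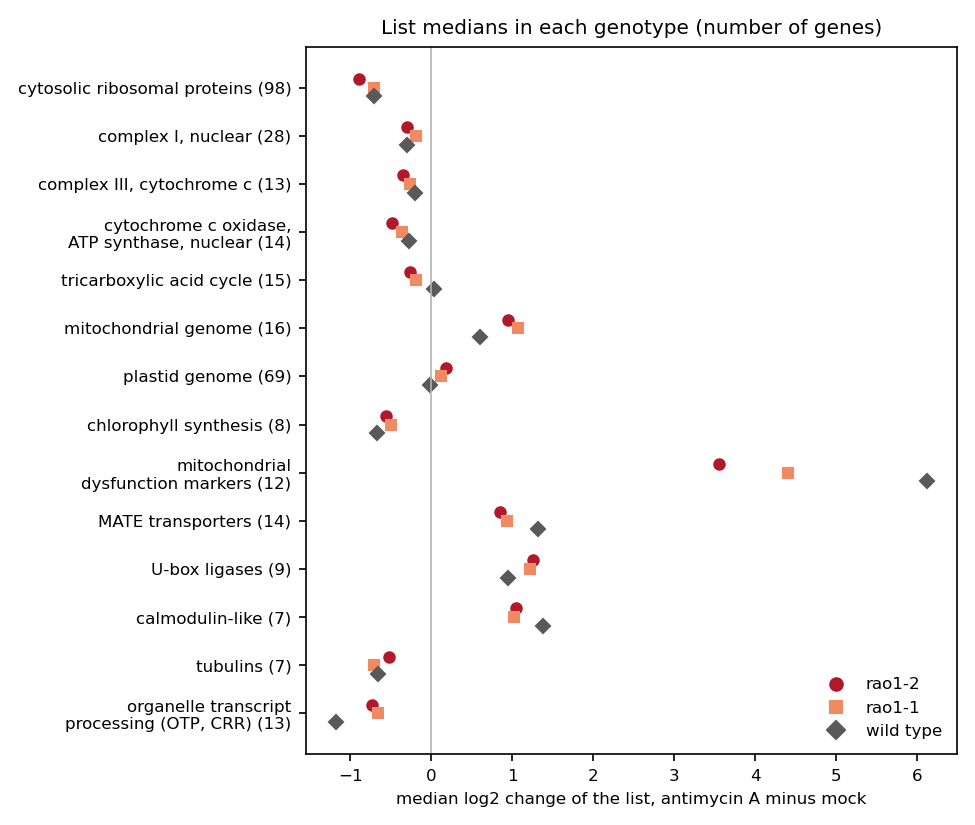
Median log2 response to antimycin A (x axis) of 14 gene lists (rows), with circles for rao1-2, squares for rao1-1 and diamonds for wild type. The markers of mitochondrial dysfunction are the list spread widest over the genotypes (3.55, 4.41 and 6.13), and the ribosomal proteins lie at -0.90, -0.70 and -0.71.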

How the data were processed

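Transcripts were measured on 1-colour Affymetrix ATH1 arrays made from 400 ng of total RNA. The deposited values are normalized intensities on a linear scale. RMA and GCRMA are named, without version, per the submitters' processing notes, and the sources used here do not say which gave the deposited intensity values. Both make the arrays' distributions alike, so each change is relative to most other probe sets. Deposited intensities were turned to log2 without a pseudocount or further normalization.

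Of 22810 probe sets, 64 controls were left out. The platform annotation gave 1 gene to 13513 probe sets, several to 503 and none to 8730. Symbols came from RefSeq (TAIR10.1, names only) for 13436, and 77 kept their given names. The brightest probe set represented a gene. Gene lists were set by locus or by symbol, and a locus without a symbol was placed from general knowledge. Those for MATE transporters, ribosomal proteins, respiratory complexes, organelle genomes, heat shock loci and further symbol families were added once the annotation was known. The members and lists were chosen with earlier results of these data known.

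limma 3.58.1 in R 4.3.3 fitted a mean for each group to all 18 arrays, leaving 12 residual degrees of freedom, with eBayes, two-sided tests and Benjamini-Hochberg adjustment over 22746 probe sets. The procedure was tested on simulated data. Contrasts were antimycin A minus mock in rao1-2, and this response minus that of wild type or rao1-1. Genes named were, among called probe sets with non-overlapping groups, the 12 largest rises and 12 largest falls measured on all 6 arrays, the 10 highest bounds of transcripts under the limit with mock and the 6 highest of those under it with antimycin A, and up to 4 called members in each direction of each list. For differences in response they were the 6 largest in each direction, without the overlap rule. AT2G21640, AT2G03130, AT5G51440, AT5G09570, GSTU25, NDB2 and the green tissue and root markers were named as further members of their lists, after their values were seen.

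The labels number the replicates. In rao1-2, deviations of same-numbered antimycin A and mock arrays correlated at 0.14, 0.15 and 0.13 across probe sets, and differently numbered ones at -0.10 to -0.03, so a fit with the number as a block was an alternative. In wild type and rao1-1 not every same-numbered pair was above 0.1. Other alternatives were other scalings, a filter on dim probe sets, an offset, an intensity trend, fewer arrays in the fit and leaving out each array.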

Additional observations from a re-analysis of the deposited data

Results flagged for a closer look

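Differences in response between rao1-2 and wild type passed the test for 45 probe sets, 24 of them with 1 named gene. Most of the 13 named here were at intensities near or under the background limit in rao1-2. AT2G32020, described above, differed by -1.73 on the log2 scale and was measured far above the limit under antimycin A in both genotypes. Responses lower in rao1-2 were also found for AT5G09570 (-3.79), AT2G41800 (-2.98), AT3G17110 (-2.52), AT1G12030 (-2.40) and AT5G60350 (-2.24), which were under the limit on all 6 rao1-2 arrays, so these values are fits rather than bounds. AT3G17110 was nevertheless called higher in rao1-2, with 15.3, 14.6 and 11.6 under antimycin A, against 5.18, 5.16 and 6.26 under mock. CHIL differed by -2.63.

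Higher responses in rao1-2 were found for AT5G53710 (3.03), AT1G02670 (2.28), AT1G56710 (2.10), AT1G50280 (1.69), AT1G72840 (1.43) and AT3G23020 (1.33). AT1G02670 had 28.5, 44.9 and 31.2 under antimycin A in rao1-2, against 5.14, 4.72 and 4.40 under mock, at least 1.80-fold higher, while its response in wild type was 0.57. AT5G53710, AT1G56710, AT1G50280 and AT1G72840 were under the limit on all 6 rao1-2 arrays. AT1G56710 was nevertheless called lower in rao1-2 (-0.77, adjusted p = 0.000356 in limma's fit), so its higher response was a smaller fitted fall than in wild type.

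Of these 13 named differences, AT5G09570, CHIL, AT1G12030, AT1G72840 and AT3G23020 lost the call when certain single arrays were left out and also with the replicate block. AT1G02670, AT1G50280, AT5G60350 and AT2G32020 lost it with the replicate block but with no array left out. AT2G41800, AT3G17110, AT5G53710 and AT1G56710 were called in each of the 20 alternatives.

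The control probe sets were not among the genes tested, though the poly(A) and hybridisation controls set the scale in the control centrings. The control for 25S ribosomal RNA was higher under antimycin A by 1.05 in rao1-2, with non-overlapping groups. Fitted changes were -0.46 to -0.83 for the actin controls, 0.23 to 0.47 for those of GAPDH and 0.10 to 0.31 for those of ubiquitin.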

How the results depend on the processing

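The count of 9756 responding probe sets in rao1-2 was between 8806 and 9254 when 1 array was left out, 8332 with only the 6 rao1-2 arrays in the fit, 12913 and 12546 with the poly(A) and hybridisation centrings, and 9628 to 9774 with the replicate block, quantile normalization, the filter on dim probe sets, an offset of 16 or an intensity trend. The replicate block gave 9636 (3521 higher and 6115 lower). Among the named responses it ended only the call of TMT2. The difference from wild type was the least stable count. Against 45 probe sets, 26 were called with only the 12 arrays of both genotypes and 10 with the replicate block, and 27 to 324 when 1 array was left out. With the other alternatives it was 34 to 52. The difference from rao1-1 was 0 in each alternative that kept all arrays, at a smallest adjusted p of 0.0702, and 0 to 57 when 1 array was left out. The cause of these shifts was not tested. AT5G51440, not called, lay between -0.22 and 1.86 when 1 array was left out. Of 253 named genes called in rao1-2, 45 lost the call in at least 1 of 14 alternatives and 0 turned direction. Of 13 named differences from wild type, 9 lost the call in at least 1 of 20 alternatives. With 3 arrays a group, 7717 probe sets under the limit in both groups give no fold.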

Other observations

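Further families were described in rao1-2. Of 20 beta-glucosidases, which release sugar from stored glucosides, 4 were called higher and 5 lower, where 15.6% and 27.3% of all probe sets were. BGLU15 had 651, 375 and 301 under antimycin A, against 78.7, 45.2 and 34.2 under mock, 8.45-fold higher (limma adjusted p = 3.20e-05), while BGLU44 had 3265, 2507 and 3375 under antimycin A, against 8114, 5969 and 7756 under mock, 2.39-fold lower (adjusted p = 0.000211). Serine carboxypeptidase-like genes had 9 of 29 lower (31.0%, beside 27.3% of all probe sets) and 2 higher, led by scpl35 (4.27-fold lower, adjusted p = 1.82e-05). Both higher calls, scpl31 and SCPL34, were lost without antimycin A replicate 1 and without mock replicate 3. With the control centrings 0 were higher and 15 lower (poly(A)), or 1 and 12 (hybridisation). Of 8 heat shock loci 1 rose and 1 fell (12.5% each), or 2 fell without mock replicate 1 or with the poly(A) centring. AT3G09440 had 1860, 1345 and 1434 under antimycin A, against 6162, 9347 and 8763 under mock, 5.20-fold lower (-2.38 ± 0.22, adjusted p = 2.08e-06), and AT1G54050 was 4.34-fold higher (adjusted p = 1.57e-05). MCCA, which acts in leucine breakdown, was 3.50-fold higher, with 553, 874 and 535 under antimycin A, against 389, 151 and 103 under mock (adjusted p = 0.00519). MCCB went the other way, with a change of -0.54. Both belonged to 5 named markers of sugar starvation and senescence, of which 3 were called higher and 1, MCCB, lower. Leaving out antimycin A replicate 3 or mock replicate 1 gave 2 higher and 0 lower.

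Of transcripts used elsewhere as internal references, most were not called. AT2G28390 had 330.2, 334 and 327 under antimycin A, against 334, 325 and 369 under mock (-0.05 ± 0.08), and AT4G34270 had 513, 529 and 509 under antimycin A, against 537, 542 and 545 under mock (-0.07 ± 0.04). Of the 4 reference genes 1, TUB6, was called lower (1.44-fold, adjusted p = 0.000602), where 27.3% of all probe sets were. Centred on either set of controls all 4 were called lower, and 2 without mock replicate 1. Of 5 cell cycle genes, 3 were called lower and 0 higher, beside 27.3% and 15.6% of all probe sets. The lower calls were 1 without mock replicate 3 and 2 without antimycin A replicate 1 or 2. The list held 2 genes under the background limit in both groups. SIM, an inhibitor of mitosis in trichomes, had 45.3, 60.4 and 61.6 under antimycin A, against 138, 127 and 166 under mock, 2.58-fold lower (adjusted p = 0.0106).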
